A study of Homo sapiens with 12 samples.

Results

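EGR1, EGR2, EGR3, IER2, IER3, IER5 and SRF are 7 genes of the immediate early response, chosen by name. In the probe annotation used here 6 of the 7 had a probe set listed for that gene alone, 8 probe sets in all, out of 11963 genes and 22277 probe sets. EGR2 had none listed and is not analysed here. RNA came from MDA-MB-231, a human breast cancer cell line of the triple-negative class, treated for 24 h with 5 uM SAHA plus 2.5 mM pargyline (the COMBO group), with 5 uM SAHA, with 2.5 mM pargyline, or with the vehicle DMSO, which is the control. SAHA, also called vorinostat, inhibits histone deacetylases, and pargyline inhibits monoamine oxidases and, at high concentration, the histone demethylase LSD1. Each group held 3 arrays, labelled biological replicates, so the p-values measure the spread between these 12 samples of a single line.

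Immediate early genes are switched on within minutes of a growth factor or stress signal, without new protein synthesis, and most of their transcripts are short-lived. SRF is the transcription factor behind much of this response. It binds a DNA element called the CArG box and is driven either by ELK family partners, which the kinase ERK activates, or by MRTF partners, which respond to the actin cytoskeleton. EGR1 and EGR3 are zinc finger transcription factors, and the IER genes encode short-lived regulatory proteins that share a name but not a common mechanism. In a bulk sample a change in every cell cannot be told apart from a change in some of them.

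Replicate arrays resembled each other closely and the cells carried the line's markers. Pearson's r over probe sets was 0.998 to 0.999 between replicates. The median log2 value of an array was 5.15 to 5.20 in DMSO and 5.24 to 5.31 in SAHA. It was 5.29 to 5.32 in pargyline and 5.29 to 5.38 in COMBO, so every DMSO array lay below every treated array. In DMSO all 8 markers listed as present lay far above the median gene, with VIM at 14.9 and CD44 at 13.67, while CDH1, ESR1 and PGR read 2.11, 3.11 and 2.17. ERBB2 and GATA3, listed as low, read 8.28 and 9.23. The 7 measured markers of leukocytes, endothelium and fat lay at or below 2.73 in DMSO, and PECAM1 averaged 3.13 ± 0.45 in pargyline. The 3' minus 5' difference of the actin control, a sign of RNA quality, was 0.89 ± 0.05 in COMBO, 0.84 ± 0.07 in SAHA, 0.80 ± 0.17 in pargyline and 0.79 ± 0.03 in DMSO (log2, SD, n = 3 each). Its part in the results was not tested.

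The promoters of EGR1 and SRF are shown because, of the 5 listed genes with a promoter entry, these hold a pair of CArG boxes just upstream of the start. A further reason is that against DMSO EGR1 rose and SRF fell in both groups given SAHA. The sequences are the 250 bases before a RefSeq start on GRCh38.p14, plus strand, at chr5:138465229-138465478 for EGR1 and chr6:43171019-43171268 for SRF, with CArG boxes in capitals.
EGR1: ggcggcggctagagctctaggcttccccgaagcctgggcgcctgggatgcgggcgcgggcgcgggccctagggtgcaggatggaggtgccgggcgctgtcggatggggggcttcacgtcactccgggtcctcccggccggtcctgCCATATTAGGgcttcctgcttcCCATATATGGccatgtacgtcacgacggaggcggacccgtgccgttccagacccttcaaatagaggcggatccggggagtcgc
SRF: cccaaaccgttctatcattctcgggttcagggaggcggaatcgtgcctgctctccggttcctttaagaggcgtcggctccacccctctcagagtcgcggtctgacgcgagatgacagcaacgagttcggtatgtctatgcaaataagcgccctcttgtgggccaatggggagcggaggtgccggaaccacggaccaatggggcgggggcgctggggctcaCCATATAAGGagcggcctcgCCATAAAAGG

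In EGR1 the CArG boxes ran from -105 to -96 and from -83 to -74, counted from the start site, and in SRF from -30 to -21 and from -10 to -1. Of 35116 promoter windows of this length, 1.16% held a CArG box and 0.0313% held 2 or more. The EGR1 window also held the CREB and ATF core TGACGT at 2 places (7.1% of windows hold it) and the EGR motif GCGNGGGCG at 1 (8.41%). The SRF window held GCGNGGGCG and CCGGAA, a form of the ETS site, which 14.5% of windows hold. Shorter or other ETS forms were not searched, so a window without CCGGAA may still hold an ETS site. The IER2 and IER5 windows held CCGGAA and no match to the CArG box. SRF has 2 start sites listed, and the window of the other had no match to the CArG box. Of the EGR2 start sites listed, 1 had a single CArG box, from -71 to -62. Motifs were searched on both strands, and none of these matches overlapped another. Of the 7 genes, 5 matched a RefSeq promoter entry. EGR3 and IER3 had none in the set used here, so their promoters were not searched.

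**Figure D1:**
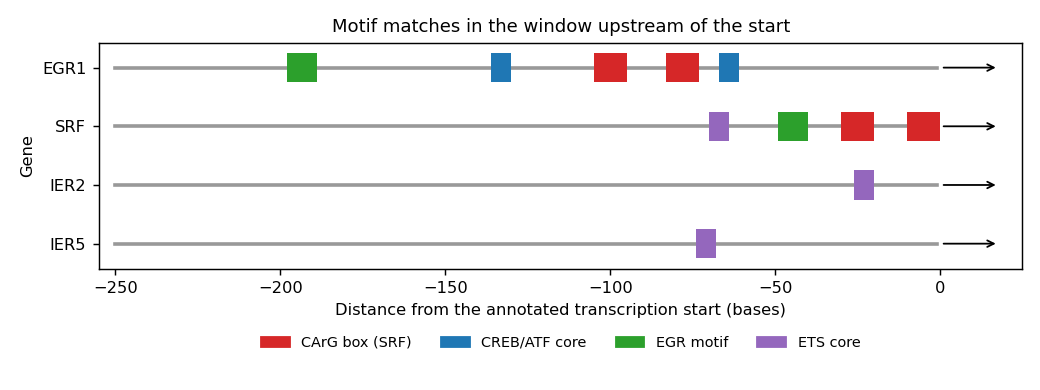
Positions of motif matches in the 250 bases before the start site (x axis, distance in bases; arrow, direction of transcription) for EGR1, SRF, IER2 and IER5; coloured boxes are to scale. EGR1 and SRF each hold 2 CArG boxes, and the IER2 and IER5 windows hold a CCGGAA match each. CCGGAA, labelled ETS core, is the only ETS form searched.

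EGR1, which binds GC-rich promoter sites and links growth factor signals to later gene expression, was higher with each drug and highest with both. Its brightest probe set, 201694_s_at, read 12.32, 12.47 and 11.81 (log2 intensity) in COMBO, 10.94, 11.62 and 11.25 in SAHA, 9.88, 10.45 and 10.14 in pargyline, and 8.71, 9.57 and 9.16 in DMSO. No groups overlapped. Against DMSO, EGR1 rose by 3.05 ± 0.27 with both drugs (± SE, log2 fold change, 3 arrays a group, limma adjusted p = 6.93e-06), an 8.29-fold rise. It rose by 2.12 ± 0.27 with SAHA (4.35-fold, limma adjusted p = 9.58e-05) and by 1.01 ± 0.27 with pargyline (2.01-fold, limma adjusted p = 0.032). Group means therefore ran COMBO 12.20, SAHA 11.27, pargyline 10.16 and DMSO 9.15, and all 3 neighbouring steps of this order passed. The step between COMBO and SAHA passed at a limma adjusted p = 0.0433. That call was lost in 6 of the 12 fits with an array left out.

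The dimmer EGR1 probe set, 201693_s_at, gave the same order. It read 10.47, 10.71 and 10.03 in COMBO, 9.06, 9.71 and 9.23 in SAHA, 8.07, 8.43 and 8.11 in pargyline, and 6.54, 7.41 and 7.20 in DMSO. Tested over all 19064 single-gene probe sets, its changes against DMSO were 3.35 ± 0.26, 2.28 ± 0.26 and 1.15 ± 0.26 in limma (adjusted p = 4e-06, 6.12e-05 and 0.0187). The spread of EGR1 within groups, with an SD from 0.28 to 0.43 for the brighter probe set, was wider than that of the IER genes, whose SDs ran from 0.03 to 0.21. The pargyline call of the brighter probe set did not hold without DMSO replicate 1 (0.79, adjusted p = 0.113), DMSO replicate 3 (adjusted p = 0.0689), pargyline replicate 2 (0.86, adjusted p = 0.0968) or pargyline replicate 3 (adjusted p = 0.0846), each in limma, nor with the compared groups fitted alone (adjusted p = 0.0518).

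**Figure D2:**
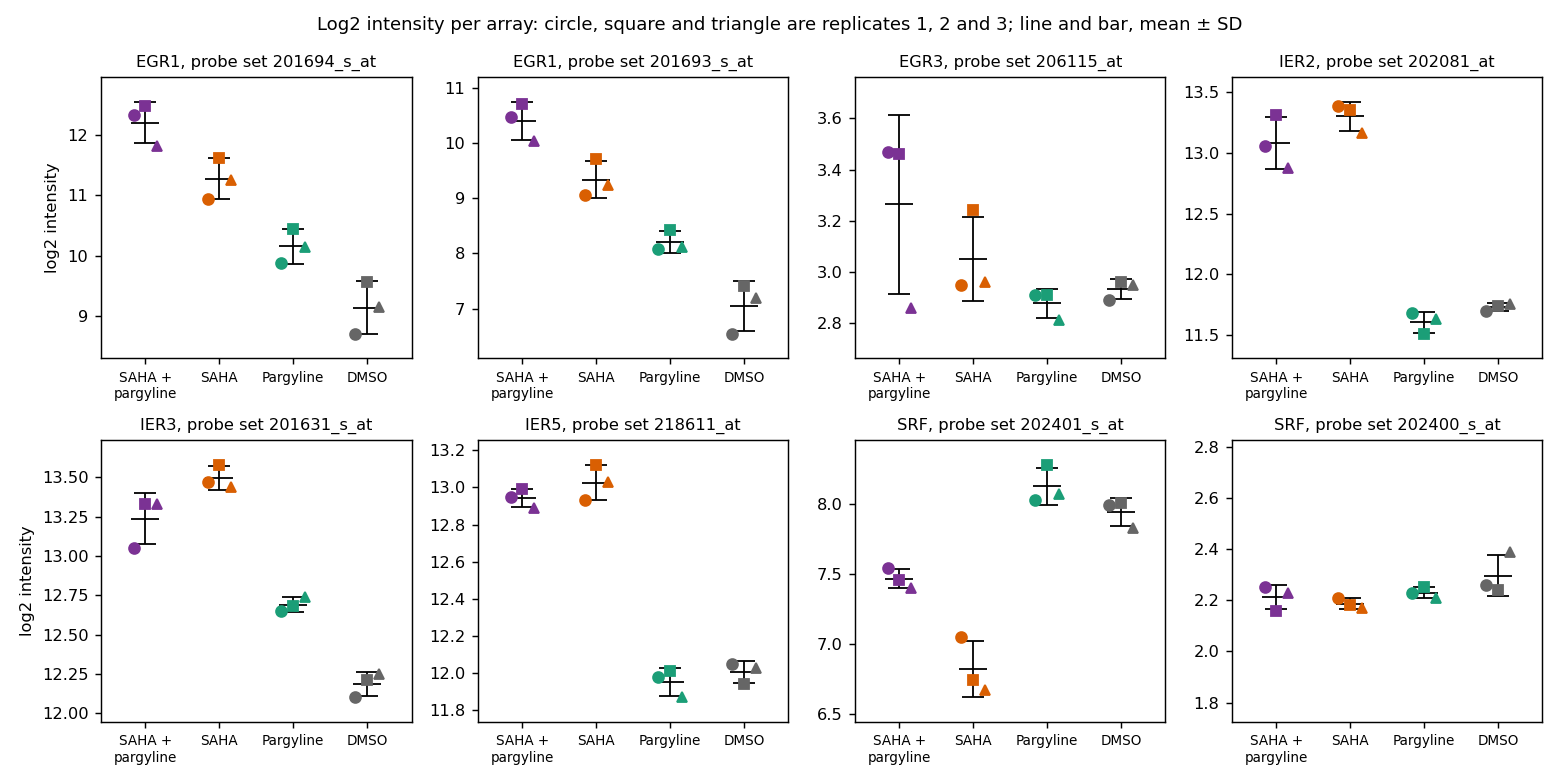
Log2 intensity (y axis, own scale per panel) of the 8 probe sets on each of 12 arrays, by treatment (x axis); symbols are replicates, line and bar the mean ± SD (n = 3). EGR1 steps down from COMBO to DMSO in both probe sets, IER2 and IER5 form a high pair (COMBO and SAHA) and a low pair (pargyline and DMSO), and SRF in 202401_s_at is lowest in SAHA.

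EGR3, a relative of EGR1 that binds similar sites, read near the low end of the arrays. Its probe set gave 3.47, 3.46 and 2.86 in COMBO, 2.95, 3.24 and 2.96 in SAHA, 2.91, 2.91 and 2.81 in pargyline, and 2.89, 2.96 and 2.95 in DMSO (log2 intensity). These values lay between the 40.5 and 44.8 percentiles of probe sets, while the median gene averaged 7.06. COMBO replicates 1 and 2 were above every DMSO array and COMBO replicate 3 was below them, so the groups overlapped. EGR3 did not pass with both drugs (0.33, 95% interval -0.00 to 0.67, limma adjusted p = 0.0981), with SAHA (0.12, -0.22 to 0.45) or with pargyline (-0.05, -0.39 to 0.28). Without COMBO replicate 3 the COMBO difference was 0.53 and passed in limma (adjusted p = 0.000592), and it also passed with array weights (0.46, adjusted p = 0.00478).

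IER2, IER3 and IER5 were higher wherever SAHA was present. IER2, a nuclear protein thought to act in transcription, read 13.06, 13.31 and 12.88 in COMBO, 13.39, 13.35 and 13.16 in SAHA, 11.68, 11.51 and 11.63 in pargyline, and 11.70, 11.74 and 11.76 in DMSO (log2 intensity). The 6 arrays with SAHA were all above the 6 without it. IER2 rose by 1.57 ± 0.10 with SAHA (2.97-fold, limma adjusted p = 1.04e-06) and by 1.35 ± 0.10 with both drugs (2.55-fold, limma adjusted p = 2.25e-06), and it did not pass with pargyline (-0.12, 95% interval -0.35 to 0.10). In the order of levels, SAHA and COMBO did not pass against each other (-0.22 for COMBO minus SAHA, -0.44 to 0.01, limma adjusted p = 0.192), although this difference passed without COMBO replicate 2 (-0.33, limma adjusted p = 0.0354).

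IER5, which with the phosphatase PP2A increases the activity of the heat shock factor HSF1, had the same pair of levels. It read 12.95, 12.99 and 12.89 in COMBO, 12.93, 13.12 and 13.03 in SAHA, 11.98, 12.01 and 11.87 in pargyline, and 12.05, 11.94 and 12.03 in DMSO (log2 intensity). The arrays with SAHA stood apart from those without it. IER5 rose by 1.02 ± 0.06 with SAHA (2.03-fold, limma adjusted p = 4.53e-07) and by 0.94 ± 0.06 with both drugs (1.91-fold, limma adjusted p = 6.19e-07). With pargyline it did not pass (-0.05, 95% interval -0.18 to 0.07, limma adjusted p = 0.62). With each array centred on its median, which puts the median gene at -0.15 for pargyline against DMSO, IER5 passed at -0.18 (limma adjusted p = 0.048).

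IER3, which restrains PP2A and so prolongs ERK signalling and also modulates cell death, was the IER gene that rose with pargyline too. It read 13.05, 13.33 and 13.33 in COMBO, 13.47, 13.58 and 13.44 in SAHA, 12.65, 12.68 and 12.74 in pargyline, and 12.10, 12.21 and 12.25 in DMSO (log2 intensity). No groups overlapped, and the combination lay between SAHA and pargyline. IER3 rose by 1.31 ± 0.08 with SAHA (2.48-fold, limma adjusted p = 6.19e-07), by 1.05 ± 0.08 with both drugs (2.07-fold, limma adjusted p = 2.1e-06) and by 0.51 ± 0.08 with pargyline (1.42-fold, limma adjusted p = 0.00248). All 3 steps of the order SAHA, COMBO, pargyline, DMSO passed, with 0.0487 the highest adjusted p in limma, for COMBO against SAHA (-0.26). That last call was lost in 11 of the 12 fits with an array left out.

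Against DMSO, SRF fell with SAHA and with both drugs, where EGR1 and the IER genes rose. Its probe set 202401_s_at read 7.54, 7.46 and 7.40 in COMBO, 7.05, 6.74 and 6.67 in SAHA, 8.03, 8.28 and 8.07 in pargyline, and 7.99, 8.01 and 7.83 in DMSO (log2 intensity). The SAHA arrays were lowest, the COMBO arrays lay above them, and both groups were below all pargyline and DMSO arrays. SRF fell by 1.12 on the log2 scale with SAHA (SE 0.10, a 2.18-fold fall, limma adjusted p = 1.18e-05) and fell by 0.48 with both drugs (SE 0.10, 1.39-fold, limma adjusted p = 0.00335). With pargyline it did not pass (0.18, 95% interval -0.05 to 0.42, limma adjusted p = 0.32), although the lowest pargyline array was above the highest DMSO array.

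The other SRF probe set, 202400_s_at, read between 2.16 and 2.39 on all 12 arrays, near the lower quartile of probe sets (2.24), and its groups overlapped except that SAHA lay below DMSO. Its change with SAHA was -0.11 ± 0.04 and did not pass in limma (adjusted p = 0.0522). Where the mean of both probe sets stood for SRF, the change with SAHA was -0.62 and that with both drugs -0.28, both of which passed.

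Counted together, 4 of the 6 measured genes rose and 1 fell with SAHA against DMSO, where 46.2% of all genes passed (23.0% rose and 23.1% fell). The combination against DMSO gave the same counts, with 48.3% of all genes passing (24.3% rose and 24.0% fell). With pargyline 2 rose and 4 did not pass, with 15.9% of all genes passing (8.48% rose and 7.45% fell). Groups did not overlap for 4 of the 6 there, where 30.8% of all genes had no overlap. Besides EGR1 and IER3 these were IER2, lower on every pargyline array than on every DMSO array, and SRF, higher. SAHA against pargyline gave 4 genes that rose and 1 that fell, where 46.2% of all genes passed (23.4% rose and 22.7% fell). Median changes of the 6 genes were 0.99 with both drugs, 1.16 with SAHA and 0.06 with pargyline, beside -0.01, 0.00 and -0.02 over all genes. These comparisons share the DMSO arrays. With each array centred on its median, the median gene lay at -0.17, -0.10 and -0.15, and higher genes made up 25%, 36.9% and 12.4% of all that passed, in place of 50.3%, 49.9% and 53.2%. The listed genes kept their direction and their call in all of these comparisons under that scaling, except IER5 with pargyline.

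**Figure D3:**
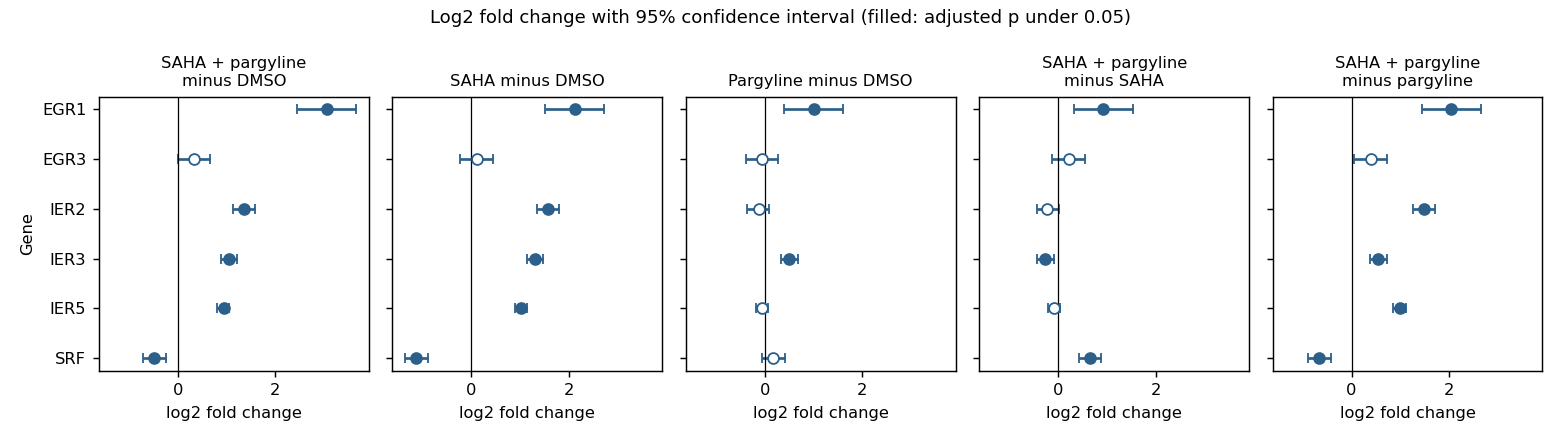
Log2 fold change (x axis) with its 95% confidence interval for 6 genes (y axis) in 5 comparisons; filled points have a limma adjusted p under 0.05. EGR1 is the gene with the largest change with both drugs (3.05), SRF is below 0 where SAHA is compared with DMSO (-1.12), and intervals with pargyline lie near 0 except for EGR1 and IER3.

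Comparing the combination with each single drug asks what the other drug added. Against SAHA alone, EGR1 (0.93 ± 0.27, limma adjusted p = 0.0433) and SRF (0.65 ± 0.10, limma adjusted p = 0.00327) rose and IER3 fell (-0.26 ± 0.08, limma adjusted p = 0.0487), where 16.6% of all genes passed (7.88% rose and 8.71% fell, with higher genes 47.5% of these and 34.7% with arrays centred). The SRF difference, a 1.57-fold rise, passed with each array left out in turn. The IER3 call was lost in 11 of these 12 fits (adjusted p from 0.0541 to 0.159), all but the fit without COMBO replicate 3, and with quantile normalization (adjusted p = 0.1). The EGR1 call was lost in 6 of the 12, those without DMSO replicate 3, SAHA replicate 1 or 3, pargyline replicate 3, or COMBO replicate 1 or 2 (adjusted p from 0.0586 to 0.152), and with quantile normalization (adjusted p = 0.0509). Against pargyline alone, EGR1 (2.04 ± 0.27), IER2 (1.48 ± 0.10), IER3 (0.55 ± 0.08) and IER5 (0.99 ± 0.06) rose and SRF changed by -0.66 ± 0.10, with limma adjusted p from 5.88e-07 to 0.000452, where 47.5% of all genes passed (23.9% rose and 23.6% fell). EGR3 missed the threshold there (0.39, limma adjusted p = 0.0574) and passed at 0.59 without COMBO replicate 3 (limma adjusted p = 0.000369), at 0.55 with array weights (limma adjusted p = 0.00461) and at 0.39 with the lower tertile of genes left out (limma adjusted p = 0.034).

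The interaction is the combination change minus the sum of the changes with each drug, so 0 means that log2 changes add. For IER3 the combination change of 1.05 ± 0.08 fell short of the sum of 1.81 ± 0.13, an interaction of -0.76 ± 0.11 (95% interval -1.01 to -0.52, limma adjusted p = 0.00835). Of the 6 measured genes 1 passed, where 3.72% of all genes passed (1.28% above 0 and 2.44% below, a share above 0 of 34.4%, or 50.6% with arrays centred). IER3 lay between the 91.8 and 97.4 percentiles of probe sets on all arrays, and IER5, at 90.6 to 96.1, gave an interaction of -0.03 (-0.21 to 0.15). IER5 did not pass with pargyline alone, so it is not a like case. Whether a high signal level bears on the IER3 interaction was not tested. For EGR1 the combination change of 3.05 stood beside a sum of 3.13 ± 0.46 (interaction -0.08, -0.93 to 0.78, limma adjusted p = 0.962), and for IER2 1.35 beside 1.44 (-0.09, -0.41 to 0.23). SRF had -0.48 beside -0.94, an interaction of 0.47 (0.14 to 0.80) with limma adjusted p = 0.129, which passed without SAHA replicate 1 (0.58, adjusted p = 0.0416) and with array weights (0.55, adjusted p = 0.025). EGR3, with 0.27 (-0.20 to 0.75), passed without COMBO replicate 3 (0.47, limma adjusted p = 0.0487).

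**Figure D4:**
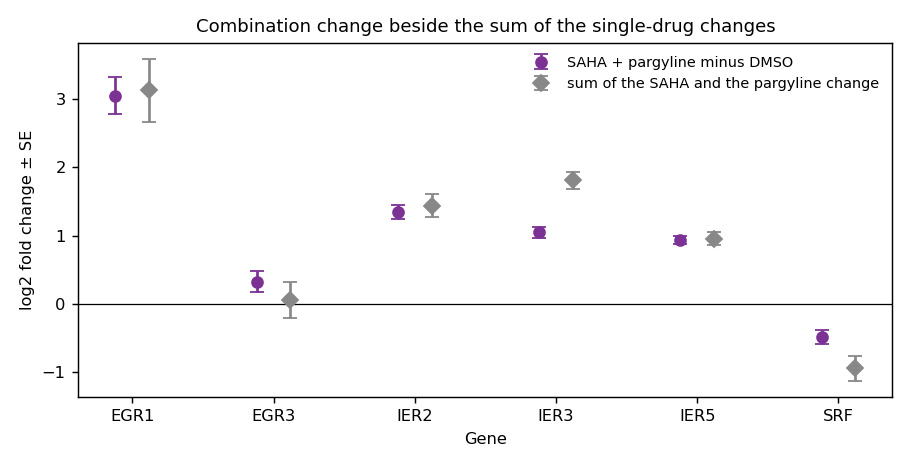
Log2 fold change ± SE (y axis) of each gene (x axis) with both drugs against DMSO (circles) beside the sum of the SAHA and pargyline changes (diamonds). The symbols separate for IER3 (1.05 and 1.81) and SRF (-0.48 and -0.94) and lie close together for EGR1, IER2 and IER5. The interaction passed for IER3 (limma adjusted p = 0.00835) but not for SRF (limma adjusted p = 0.129). Both symbols of a gene use the same DMSO arrays, so the bars alone do not test their difference.

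The partners that drive SRF went both ways with SAHA. Of 7 measured SRF cofactors, 3 rose and 4 fell with both drugs, and 2 rose, 3 fell and 2 did not pass with SAHA. Over all genes 24.3% rose and 24.0% fell with both drugs, 23.0% and 23.1% with SAHA, and 8.48% and 7.45% with pargyline. MRTFA, the actin-regulated coactivator, rose by 1.39 ± 0.23 with both drugs and by 1.49 ± 0.23 with SAHA (limma adjusted p = 0.000552 and 0.00038), and SCAI, a suppressor of MRTF activity, by 0.92 ± 0.14 and 0.66 ± 0.14. ELK4 changed by -1.05 ± 0.17 and -0.97 ± 0.17 in the same comparisons, FHL2, a LIM domain cofactor, by -1.01 ± 0.12 and -1.14 ± 0.12, and MRTFB by -0.37 ± 0.10 and -0.29 ± 0.10, all of them passing. ELK1 (0.28 ± 0.09) and ELK3 (-0.66 ± 0.21) passed with both drugs but not with SAHA (0.18 and -0.46). With pargyline none of the 7 passed in limma, and 1 had an unadjusted p under 0.05. Between COMBO and SAHA none passed, where 16.6% of all genes passed, and none had an unadjusted p under 0.05 in limma. With arrays centred the counts were 2 up and 4 down with both drugs, 2 and 4 with SAHA, and 0 and 2 with pargyline. Of all 11963 genes 2503 then rose and 7519 fell with both drugs, 2385 and 4070 with SAHA, and 872 and 6168 with pargyline.

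Of 23 measured cytoskeletal and other SRF targets, 7 rose and 7 fell with both drugs, 7 rose and 7 fell with SAHA, and 2 rose and 1 fell with pargyline. These shares lie near those over all genes, of which 24.3% rose and 24.0% fell with both drugs, 23.0% and 23.1% with SAHA and 8.48% and 7.45% with pargyline. TPM4, an actin-binding tropomyosin, changed by -2.54 ± 0.13 with both drugs and -2.44 ± 0.13 with SAHA. TPM2, which also fell in both comparisons, read 2.19 ± 0.00 in COMBO, 2.20 ± 0.03 in SAHA and 3.58 ± 1.05 in DMSO (SD, n = 3), so its lower levels lie below the lower quartile of probe sets (2.24) and the size of the fall is not well fixed. CCN2, a secreted matrix-associated protein, rose by 1.61 ± 0.07 in each, and the AP-1 subunit gene JUNB by 2.46 ± 0.09 and 2.57 ± 0.09. The list's median changes were -0.07 with both drugs and -0.04 with SAHA, close to those of all genes (-0.01 and 0.00). With arrays centred 6 rose and 12 fell with both drugs, 7 rose and 9 fell with SAHA, and 1 rose and 10 fell with pargyline. Of all 11963 genes 2503, 2385 and 872 rose and 7519, 4070 and 6168 fell under that scaling.

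Among 16 measured genes of the ERK pathway, which activates the ELK factors, 8 rose and 2 fell with both drugs. With SAHA 10 rose and 3 fell, and with pargyline 4 rose and 2 fell. The shares over all genes were 24.3% up and 24.0% down with both drugs, 23.0% and 23.1% with SAHA, and 8.48% and 7.45% with pargyline. The ERK list median with pargyline was 0.09, and -0.04 with arrays centred, beside -0.02 and -0.15 over all genes. With arrays centred 7 of the list rose and 4 fell with both drugs, 7 rose and 3 fell with SAHA, and 3 rose and 5 fell with pargyline. RPS6KA2, a ribosomal S6 kinase activated by ERK, rose by 3.44 ± 0.14, 3.21 ± 0.14 and 2.36 ± 0.14, and RPS6KA4, a kinase that can phosphorylate histone H3, changed by -1.97 ± 0.06, -1.63 ± 0.06 and -0.63 ± 0.06. MKNK1, an ERK-activated kinase, rose with both drugs (1.68 ± 0.12) and with SAHA (1.40 ± 0.12). NAB1 and NAB2 are corepressors that bind EGR proteins and are part of their feedback. NAB1 rose by 1.05 ± 0.14 with both drugs and by 1.05 ± 0.14 with SAHA, and NAB2 by 1.02 ± 0.13 and 0.76 ± 0.13, while with pargyline they gave 0.29 and 0.34 and did not pass (limma adjusted p = 0.236 and 0.124). They belong to a list of 10 EGR cofactors and relatives, of which 3 rose and 1 fell with both drugs and with SAHA, and 1 rose and 0 fell with pargyline. The shares over all genes given above for the ERK pathway apply here too. With arrays centred 3 rose and 3 fell with both drugs, 3 rose and 1 fell with SAHA, and 1 rose and 3 fell with pargyline. Of all 11963 genes 2503, 2385 and 872 then rose and 7519, 4070 and 6168 fell. CITED2, a coactivator partner of CBP, was the other that rose (3.13 ± 0.10 and 3.51 ± 0.10), and CREBBP, which encodes CBP, changed by -1.22 ± 0.13 and -1.04 ± 0.13.

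Of 28 measured genes reported as EGR1 targets, 12 rose and 5 fell with both drugs, 12 rose and 6 fell with SAHA, and 8 rose and 1 fell with pargyline. Over all genes 48.3%, 46.2% and 15.9% passed, and about as many rose as fell. The transcription factor gene ATF3 (5.76 ± 0.20 with both drugs, 4.67 ± 0.20 with SAHA) and the heparanase gene HPSE (2.85 ± 0.06 and 2.75 ± 0.06) rose. The nuclear receptor gene NR4A1, which also rose in both comparisons, averaged 9.51 in COMBO, 6.93 in SAHA and 2.50 in DMSO, where it lay in the lower tertile of genes (below 2.79) and the size of its change is not well fixed. Among the genes that fell, PLAUR, the urokinase receptor gene, changed by -3.49 ± 0.21 with SAHA. With pargyline ATF3 (2.39 ± 0.20), PTGES (2.17 ± 0.20), which makes prostaglandin E2, and NDRG1 (1.80 ± 0.20) rose. List medians were 0.09 with both drugs, 0.06 with SAHA and 0.10 with pargyline, beside -0.01, 0.00 and -0.02 over all genes. With arrays centred the list medians were -0.07, -0.05 and -0.03, beside -0.17, -0.10 and -0.15 over all genes. Under that scaling 13, 8 and 7 of the list fell, and 7519, 4070 and 6168 of all 11963 genes did.

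Of 19 measured partners of IER3 and IER5, namely PP2A subunits, heat shock genes and others, 3 rose and 9 fell with both drugs. With SAHA 3 rose and 7 fell. With pargyline 3 fell and 16 did not pass, and 5 had an unadjusted p under 0.05 in limma. Over all genes 24.3%, 23.0% and 8.48% rose in these comparisons and 24.0%, 23.1% and 7.45% fell. With arrays centred 9 partners fell with pargyline, where 6168 of all 11963 genes fell. CDC25B, a cell cycle phosphatase reported as an IER5 target, changed by -1.52 ± 0.05 with both drugs and -1.68 ± 0.05 with SAHA. The small heat shock gene HSPB1 changed by -1.94 ± 0.11 and -1.69 ± 0.11, and PPP2R1A, the PP2A scaffold, by -0.92 ± 0.14 and -1.01 ± 0.14. Another heat shock gene, DNAJB1, rose with both drugs (1.23 ± 0.28, limma adjusted p = 0.00388), while HSPH1 changed by -1.03 ± 0.09 with SAHA (limma adjusted p = 8.56e-06).

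In the 2 comparisons with SAHA, most of the other immediate early genes were higher. Of 24 transcription factors, 16 rose and 5 fell with both drugs, 16 rose and 4 fell with SAHA, and 11 rose and 1 fell with pargyline, with medians of 0.98, 1.01 and 0.37. FOS, partner of JUN in AP-1, rose with both drugs and averaged 8.45 in COMBO and 2.56 in DMSO, which is again in the lower tertile of genes and leaves the size of the rise uncertain. NR4A2, a nuclear receptor gene, rose by 5.59 ± 0.26, 4.92 ± 0.26 and 2.24 ± 0.26 with both drugs, SAHA and pargyline. Of 31 response proteins, 20 rose and 4 fell with both drugs, 21 rose and 5 fell with SAHA, and 7 rose and 24 did not pass with pargyline, with medians of 0.86, 1.05 and 0.19. DUSP1, a phosphatase that switches off MAP kinases, rose by 2.71 ± 0.14 with SAHA and 1.31 ± 0.14 with pargyline, and the cytokine gene LIF changed by -3.65 ± 0.62 with both drugs and -4.16 ± 0.62 with SAHA. The medians over all genes were -0.01, 0.00 and -0.02. Of all genes 24.3% rose and 24.0% fell with both drugs, 23.0% and 23.1% with SAHA, and 8.48% and 7.45% with pargyline. With arrays centred the medians of these lists ran from 0.71 to 0.95 with both drugs and with SAHA, and were 0.24 and 0.06 with pargyline. The median gene then lay at -0.17 with both drugs, -0.10 with SAHA and -0.15 with pargyline.

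**Figure D5:**
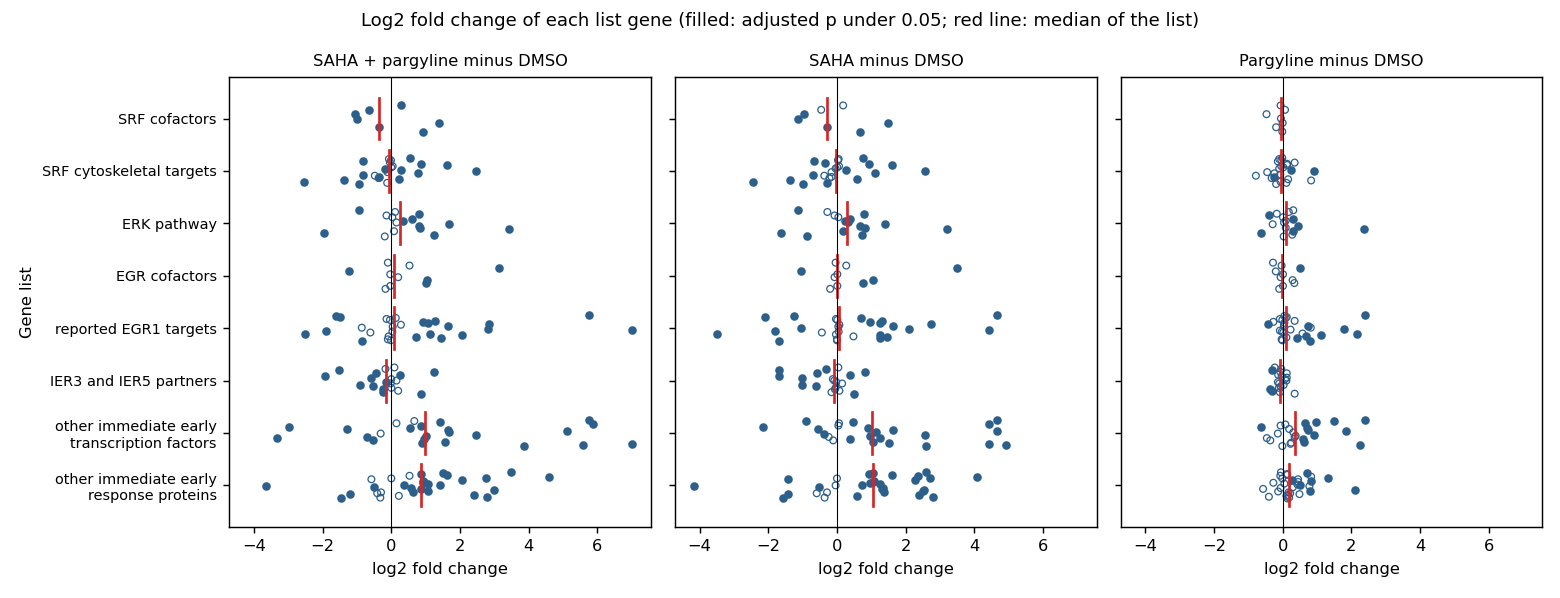
Log2 fold change (x axis) of each measured gene of 8 lists (y axis) with both drugs, SAHA or pargyline against DMSO; filled points have a limma adjusted p under 0.05 and the red line is the list median. With both drugs all 8 lists hold genes on both sides of 0. Medians there are 0.98 and 0.86 for the immediate early lists. They are -0.37, -0.07 and 0.09 for the SRF cofactor, SRF target and EGR1 target lists.

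For each listed gene the 3 genes with the most similar profile over the 12 arrays are named. Because so few are kept, listed genes without a shared name can still have similar profiles. For EGR1 they were TNIK (Pearson r = 0.984), ZNF211 (0.981) and GCLM (0.981), which like EGR1 ran down from COMBO through SAHA and pargyline to DMSO. TNIK, a kinase of the Wnt pathway, averaged 8.98 in COMBO, 8.20 in SAHA, 7.0 in pargyline and 6.17 in DMSO. For IER2 they were VRK3 (0.995), ACOT7 (0.993) and FAM89B (0.991), for IER5 HECTD3, ZDHHC3 (0.994 each) and SBF1 (0.992), and for IER3 PINK1 (0.982), KLHDC2 and NIPSNAP1 (0.979 each). PINK1, a kinase of mitochondrial quality control, averaged 8.88 in COMBO, 9.09 in SAHA, 7.87 in pargyline and 6.92 in DMSO, so like IER3 it was highest in SAHA. SRF was matched by CANX (0.989), REEP5 (0.974) and MAFG (0.972), and EGR3 by SKI (0.96), BCR (0.881) and DNAJB1 (0.877). The 12 arrays share 4 treatments, so these values describe the profiles and carry no p.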

How the data were processed

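The deposited values are log2 intensities, 1 per probe set and array, on Affymetrix HG-U133A_2 arrays, which the authors made with RMA per the submitters' processing notes. The software version and whether the 12 arrays were normalized together are not given in the sources used here. Deposited values run from 0.47 to 15.87, with 15.8% below 2, and which RMA variant gives this low end is not stated, so the scale of low values and of changes that start from them is uncertain. Values were used as deposited. Probe sets listed for 1 gene (19064) were named from the platform annotation, with symbols updated by gene identifier to RefSeq GRCh38.p14, and each gene was read by its brightest probe set. A mean per group was fitted to all 12 arrays in limma 3.58.1 under R 4.3.3. Rose, fell and passed mean a Benjamini-Hochberg adjusted p under 0.05 over 11963 genes, two-sided. Fold changes carry model standard errors. The number of arrays limits precision. The listed genes and gene lists were chosen with earlier results of these data known. Context genes named were up to 4 per list and comparison, those with the largest passing change without overlap of groups, plus SRF and EGR cofactors, and the 3 genes most correlated with each listed gene among those above the median level. The procedure was also run on simulated data with independent genes, few changed genes and no effect shared by replicate number. That setting differs from these data, so it does not show how well the calls given here hold.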

Additional observations from a re-analysis of the deposited data

Results flagged for a closer look

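The SAHA effect on IER3 differed between cells with and without pargyline. The interaction was -0.76 ± 0.11 on the log2 scale (limma adjusted p = 0.00835, n = 3 arrays per group). SAHA raised IER3 by 0.55 ± 0.08 where pargyline was present (COMBO against pargyline) and by 1.31 ± 0.08 where it was not (SAHA against DMSO). In 21 alternative fits the interaction ran from -0.81 to -0.67, with limma adjusted p from 0.00298 to 0.0247. The groups of 3 arrays are too small for a test of outlying arrays.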

How the results depend on the processing

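The procedure was repeated with 12 other settings and with each of the 12 arrays left out. Of 911 values for single genes, 862 kept direction and side of the threshold, 27 lost the call, 12 gained it and 10, all interactions that did not pass, changed sign. The interaction with an array left out ran from -0.29 to 0.14 for EGR1, -0.21 to 0.01 for IER2 and -0.08 to 0.02 for IER5. The sign changes were EGR1 without DMSO replicate 1 (0.14), SAHA replicate 2 (0.10), pargyline replicate 2 (0.07) or COMBO replicate 3 (0.12) and with array weights (0.07), IER5 without DMSO replicate 2 (0.01) or SAHA replicate 2 (0.02), with array weights (0.01) and with centred arrays (0.05), and IER2 without COMBO replicate 3 (0.01). The cause was not tested. Counts of listed genes that passed differed from those reported in these settings. For pargyline against DMSO the count was 1, in place of 2, with the compared groups alone, at adjusted p under 0.01 and at 2-fold or more, and 3 with arrays centred. For COMBO against SAHA it was 1, in place of 3, with quantile normalization, with the compared groups alone and at adjusted p under 0.01, 2 with every probe set tested, and 0 at 2-fold or more, where 3 had an unadjusted p under 0.05 in limma. At 2-fold or more it was 3 in place of 5 for COMBO against DMSO, 2 in place of 5 for COMBO against pargyline, 4 in place of 5 for SAHA against pargyline and 0 in place of 1 for the interaction, where 2 had an unadjusted p under 0.05. With array weights the count was 2 for the interaction and 6 for COMBO against DMSO and against pargyline. With an array left out the counts were 5 to 5 for SAHA against DMSO and for SAHA against pargyline, 1 to 2 for pargyline against DMSO, 5 to 6 for COMBO against DMSO and against pargyline, 1 to 4 for COMBO against SAHA and 1 to 2 for the interaction. Arrays with equal replicate numbers deviated from their group means with correlations from 0.081 to 0.535, all 18 pairs above 0 and 13 above 0.1, and others from -0.523 to 0.252. In 34 of 36 cases an array's closest array in another group had its own number, a hint of pairing from the data. The labels state no shared culture or day and not every pair passed 0.1, so the block is an alternative. With replicate number as a block the counts were 5, 2, 5, 3, 6, 5 and 1 for SAHA, pargyline and COMBO against DMSO, COMBO against SAHA and against pargyline, SAHA against pargyline and the interaction, the 1 added call being EGR3 for COMBO against pargyline (adjusted p = 0.0407). EGR1 kept its calls under the block, for pargyline against DMSO (adjusted p = 0.00679) and for COMBO against SAHA (adjusted p = 0.00949). Over all genes the interaction gave 275 higher and 395 lower genes in place of 153 and 292. EGR3 and the dim SRF probe set read near the low end of the arrays, which limits what they can show.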

Other observations

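Genes with a CArG box upstream of the start rose and fell at shares near those over all genes. Whether SRF binds these sites was not tested. This list was drawn after values were seen and is given as counts. Beside EGR1 and SRF, 163 measured genes had a CArG box in the 250 bases before a RefSeq start. Of these 47 rose and 42 fell with both drugs, 38 rose and 42 fell with SAHA, and 16 rose and 9 fell with pargyline, with median changes of -0.02, 0.01 and -0.01. Over all genes 24.3% rose and 24.0% fell with both drugs, 23.0% and 23.1% with SAHA, and 8.48% and 7.45% with pargyline. The other measured genes with 2 CArG boxes were ACTG2, AGPAT1, CUL4B and ING4. CUL4B, a scaffold of a ubiquitin ligase, rose by 0.45 ± 0.09 with both drugs and by 0.74 ± 0.09 with SAHA (limma adjusted p = 0.00241 and 9.78e-05), and AGPAT1, an enzyme of phospholipid synthesis, rose by 0.26 ± 0.06 with both drugs (adjusted p = 0.00513). ACTG2, the smooth muscle gamma-actin gene, and ING4 did not pass with both drugs (-0.01 and -0.05) or with SAHA (0.03 and -0.05).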
